A study of Homo sapiens with 9 samples.

Results

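SaOS2, a human osteosarcoma line with osteoblast-like traits, held a construct from which doxycycline induces antisense RNA against APC, a scaffold protein of the beta-catenin destruction machinery. Cells kept for 3 days in doxycycline at 1 µg/ml and then for 3 days without it, called recovery here, were compared with cells harvested at the end of the 3 days in doxycycline. These are 6 of the 9 arrays of the series, 3 per group. The remaining 3 arrays came from untreated control cells and are given only as levels for orientation. The labels do not state whether the control cells hold the construct. All cultures were grown with G418 and hygromycin. The labels do not state whether the line is 1 clone or whether each replicate was a culture of its own. The p-values here therefore cover the spread between arrays alone, which could be technical. Recovery cells were harvested 3 days later than doxycycline cells, so withdrawal and longer culture cannot be told apart.

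Genes were compared where a probe was detected (detection p under 0.05) on at least 3 of the 6 arrays, which gave 11938 genes. Levels are log2 intensities after background correction and quantile normalization. Differences are recovery minus doxycycline, as log2 difference ± standard error from limma. A gene was called at a Benjamini-Hochberg adjusted p under 0.05 over all 11938 genes. Because doxycycline replicate 2 stood apart, the counts over all genes and for many of the lists are also given without it.

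Cells that sense viral RNA or DNA in the cytosol secrete interferon beta, which signals through Janus kinases and STAT factors to raise antiviral effector genes. Many promoters of such genes hold an interferon-stimulated response element, to which STAT and IRF factors bind. APC restrains beta-catenin, a coactivator of Wnt target genes, and in bone the Wnt pathway is held back by secreted antagonists such as sclerostin.

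Between 20141 and 21317 of 47322 probes were detected on the 6 arrays. Along the first principal component of the 6 arrays, with 60.7% of the variance, recovery arrays lay from 20.5 to 27.19 and doxycycline arrays from -40.13 to -9.53. On the second, with 24.6%, doxycycline replicate 2 lay at -22.27 and the other doxycycline arrays at 27.25 and 12.1. The within-group standard deviation, as a median over genes, was 0.117 for recovery and 0.218 for doxycycline. For doxycycline without replicate 2 it was 0.118. That value comes from 2 arrays and the recovery value from 3, so they are not directly comparable. Of 11 osteoblast-like markers 8 were measured, and 0 were called by limma with all 6 arrays (1 higher and 1 lower at an unadjusted p under 0.05). Without doxycycline replicate 2 the markers SPARC and COL1A2 were called higher (adjusted p = 0.00333 and 0.00479). Without doxycycline replicate 1 the marker COL1A1 was called lower (adjusted p = 0.0252). Markers of other cell types had a probe that passed the filter for 3 of 10 haematopoietic, 1 of 5 endothelial, 1 of 6 epithelial, 1 of 4 muscle and 1 of 4 adipocyte genes. Of these, CD68, a macrophage protein of lysosomes, rose (1.57 ± 0.15, with 0.42 at its other kept probe), and the creatine kinase CKM fell (-0.82 ± 0.15). The haematopoietic genes without such a probe included PTPRC, CD3E, LYZ and TYROBP, and the median over the measured 3 was 0.00 to 0.37 in recovery and -0.42 to 0.34 in doxycycline, relative to the mean of these arrays. CSF1R, a macrophage receptor, was called higher without doxycycline replicate 2 only (adjusted p = 0.0281). The part of other cell types in the results below was not tested. CKM was not called without recovery replicate 2 or 3 (adjusted p = 0.0643 and 0.0506).

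APC, the target of the antisense RNA, had levels of 5.47, 5.28 and 5.48 in recovery, against 5.43, 5.44 and 5.40 in doxycycline, with a mean of 5.29 in control. The groups overlapped, and the difference was -0.01 ± 0.13 (adjusted p = 0.96). These levels lie near background, and whether a moderate change of the transcript would show there was not tested.

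After withdrawal 1432 of 11938 genes were called, 693 higher (5.80%) and 739 lower (6.19%). The rises were the larger changes: 48 genes rose and 2 fell by at least 2 on the log2 scale, and 209 rose and 155 fell by at least 1. Without doxycycline replicate 2 the calls were 1133 higher (9.49%) and 1231 lower (10.3%), or 2364 in all. Of the 1432 genes, 1430 were called in both fits (693 higher, 5.80%, and 737 lower, 6.17%), 934 were called only without that array, and 0 called genes changed direction. The 2 lost calls were NBEA, which encodes neurobeachin (-0.77, and -0.63 without the array, adjusted p = 0.053), and TRPS1, a GATA-type repressor (-0.70, and -0.57 without it, adjusted p = 0.051). All 364 genes that changed by at least 1 were called in both fits.

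The number of calls moved with every other array as well. It was 2283 without doxycycline replicate 1 and 512 without doxycycline replicate 3. It was 519, 395 and 569 without recovery replicates 1, 2 and 3. These calls were 1087 higher and 1196 lower without doxycycline replicate 1, and 296 and 216 without doxycycline replicate 3. They were 302 and 217, 237 and 158, and 302 and 267 without recovery replicates 1, 2 and 3. Counts for the gene lists below are to be read against the shares and counts over all genes in the same fit. In each of the 6 fits that left out 1 array 376 genes were called, 233 higher and 143 lower. A gene named below as risen or fallen is one of these 376 unless other values stand beside it. With median scaling in place of quantile normalization the split was 472 higher and 868 lower. Arrays of the groups did not overlap for 2102 genes with recovery above (17.6%) and 2173 with recovery below (18.2%).

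**Figure D1:**
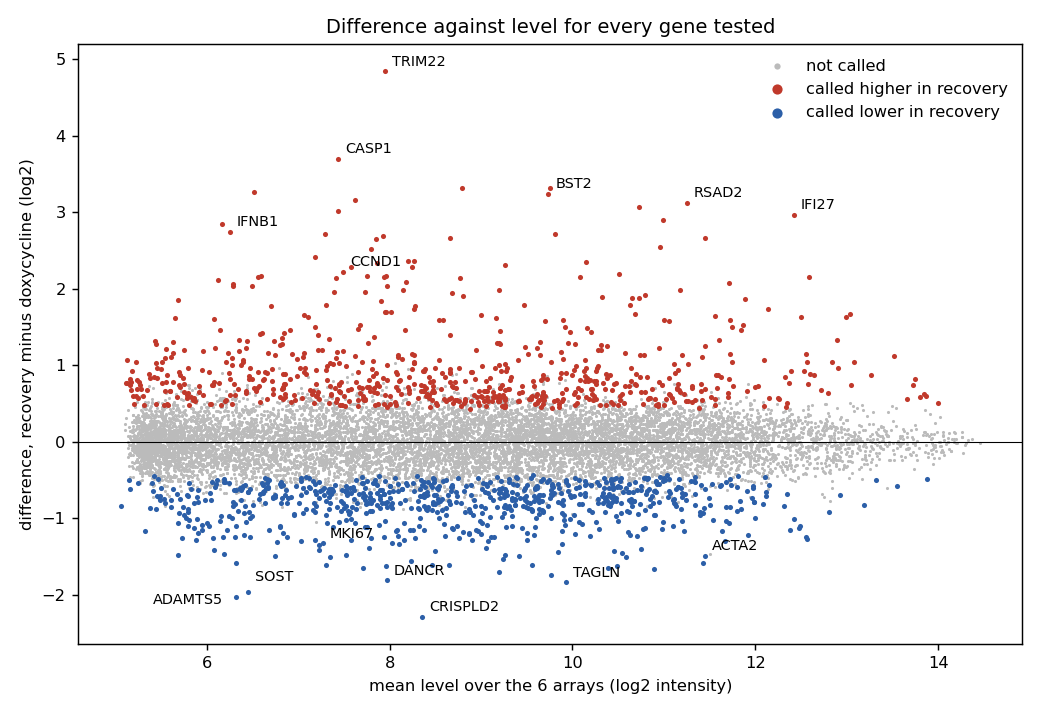
Each point is 1 of the 11938 genes, with its mean log2 intensity over the 6 arrays on the horizontal axis and the log2 difference, recovery minus doxycycline, on the vertical axis. Red points are the 693 genes called higher, blue points the 739 called lower; the red points reach 4.85 (TRIM22) and the blue points -2.28 (CRISPLD2).

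The largest rise was in TRIM22, an antiviral ubiquitin ligase. Its levels were 10.24, 10.73 and 10.16 in recovery and 5.24, 5.64 and 5.70 in doxycycline, with a mean of 4.54 in control. The lowest recovery array lay far above the highest doxycycline array, and the difference was 4.85 ± 0.19, or 28.8-fold (adjusted p = 5.06e-06). TRIM22 was detected on 2 of 3 doxycycline arrays and on 0 of 3 control arrays. Genes named as the largest rises or falls were chosen without overlap between groups, so that trait is no added evidence for them.

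Of 55 measured antiviral effector genes, 43 rose and 0 fell, against 5.80% of all genes called higher. The median difference of the list was 1.20, and -0.01 over all genes tested. The fit without doxycycline replicate 2 had 46 rises, and leaving out recovery replicate 2 left 33, the fewest. As the samples are bulk RNA, more cells in the response and more RNA per cell cannot be told apart, here or in the lists below.

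MX2, a dynamin-like GTPase that restricts viruses at the nuclear pore, had 11.24, 11.63 and 11.36 in recovery and 8.09, 8.04 and 8.14 in doxycycline (3.32 ± 0.14). BST2, the tetherin that holds budding virions to the cell surface, had 11.26, 11.31 and 11.51 in recovery and 8.08, 8.16 and 8.10 in doxycycline, a rise of 3.25 ± 0.13 (9.49-fold). In both genes the arrays of a group lay close together and the groups were well apart. Control means were 5.54 for MX2 and 6.27 for BST2, below both groups.

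RSAD2, the radical enzyme viperin, had 12.72, 12.97 and 12.74 in recovery and 9.34, 10.09 and 9.63 in doxycycline (3.13 ± 0.19). IFI27, a small interferon-inducible mitochondrial protein, had 13.86, 13.91 and 13.93 in recovery and 11.01, 10.90 and 10.89 in doxycycline (2.97 ± 0.12). The exonuclease ISG20 rose by 2.90 ± 0.15 and OAS2, which makes the activator of RNase L, by 2.67 ± 0.13, with 2.36 to 3.03 over its 4 kept probes. CMPK2, a mitochondrial nucleotide kinase, was detected on 3 of 3 recovery arrays and on 0 of 3 doxycycline arrays, at least 7.24-fold higher. It passed the detection filter through the recovery arrays alone. Members that did not pass included ISG15 (0.37) and the RNA-activated kinase EIF2AK2 (0.34), named here after their values were seen.

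**Figure D2:**
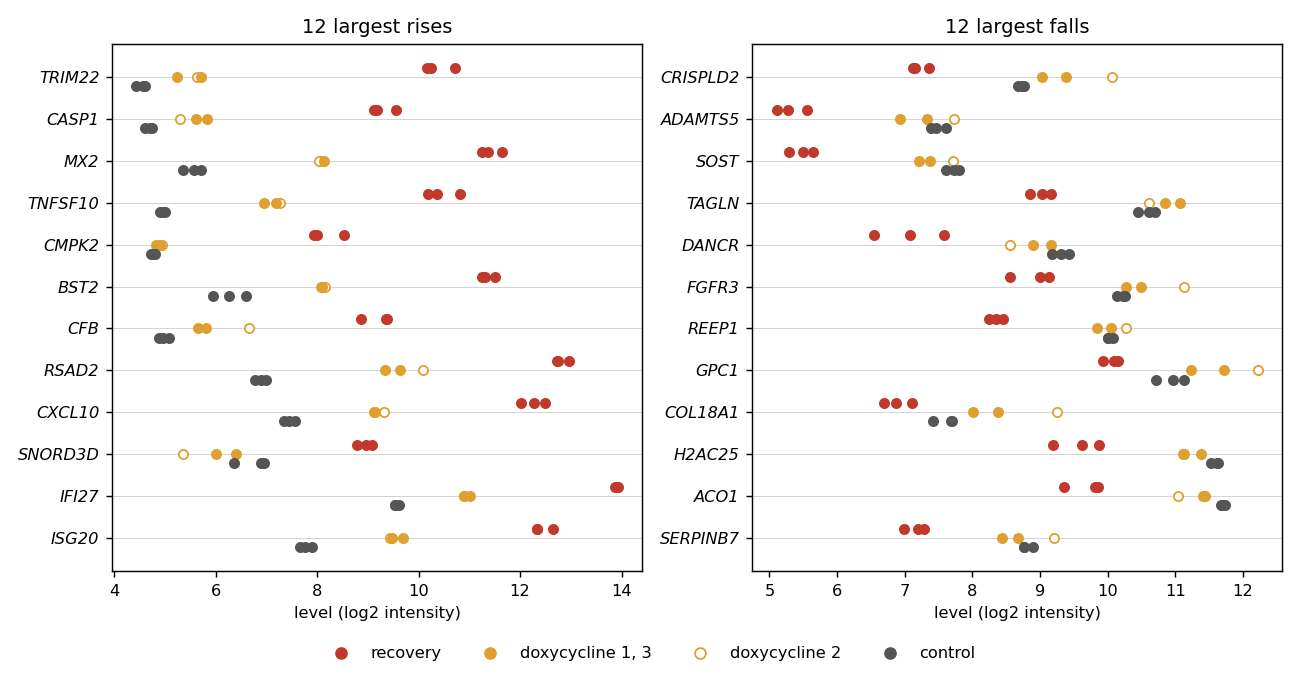
Log2 intensity on every array (horizontal axis) of the 12 largest rises and the 12 largest falls, by gene. Points are single arrays, recovery in red, doxycycline in yellow with replicate 2 open, and control in grey; genes were chosen so that the groups do not overlap, and TRIM22, the largest rise, lies at 10.16 to 10.73 in recovery and 5.24 to 5.70 in doxycycline.

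Promoter windows of 300 bases around the annotated start sites of RefSeq (GRCh38.p14) were searched on both strands for the core of the interferon-stimulated response element, which is GAAA, any 2 bases and GAAA. It was found in 29 of the 44 measured antiviral effectors with a window (65.9%), and in 23 of the 35 that rose (65.7%). Of 544 genes called higher with a window 60 held it, as did 27.5% of those that rose by at least 1. It was found in 1.96% of genes called lower, 2.93% of all genes tested and 3.65% of all promoters in the table. A match is a description of these letters, not of a bound site. Among the largest rises, the windows of RSAD2 and CMPK2 held 0 matches, and those of ISG20 and CFB 1 each. The windows of 4 other genes among these rises, each with a match, are printed 5′ to 3′ on the strand of the gene. Matches are in capitals, and the core of the other strand reads TTTC, any 2 bases and TTTC. The 4 windows are BST2 at chr19:17405581-17405880, minus strand, TNFSF10 at chr3:172523381-172523680, minus strand, CXCL10 at chr4:76023448-76023747, minus strand, and IFI27 at chr14:94110486-94110785, plus strand.
BST2: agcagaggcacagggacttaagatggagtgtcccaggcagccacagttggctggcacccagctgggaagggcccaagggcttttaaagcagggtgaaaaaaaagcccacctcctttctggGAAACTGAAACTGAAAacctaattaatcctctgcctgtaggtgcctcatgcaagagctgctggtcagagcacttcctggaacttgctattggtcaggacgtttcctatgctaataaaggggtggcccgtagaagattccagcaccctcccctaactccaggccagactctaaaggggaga
TNFSF10: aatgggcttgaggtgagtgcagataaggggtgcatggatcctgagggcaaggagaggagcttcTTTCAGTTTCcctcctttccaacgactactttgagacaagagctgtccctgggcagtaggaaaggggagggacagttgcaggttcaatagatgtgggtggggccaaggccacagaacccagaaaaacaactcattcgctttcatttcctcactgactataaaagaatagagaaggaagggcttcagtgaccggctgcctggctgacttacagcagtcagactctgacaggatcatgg
CXCL10: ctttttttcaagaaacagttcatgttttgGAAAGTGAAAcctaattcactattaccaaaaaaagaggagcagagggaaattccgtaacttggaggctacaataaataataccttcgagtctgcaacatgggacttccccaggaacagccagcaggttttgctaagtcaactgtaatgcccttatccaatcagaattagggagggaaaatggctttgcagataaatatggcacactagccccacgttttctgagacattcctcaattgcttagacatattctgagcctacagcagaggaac
IFI27: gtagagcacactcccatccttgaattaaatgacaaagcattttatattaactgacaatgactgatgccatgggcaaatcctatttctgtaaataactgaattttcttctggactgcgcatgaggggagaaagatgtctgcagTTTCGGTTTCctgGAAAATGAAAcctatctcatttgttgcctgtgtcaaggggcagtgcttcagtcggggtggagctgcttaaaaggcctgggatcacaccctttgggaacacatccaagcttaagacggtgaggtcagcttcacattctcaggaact
In BST2 the 2 matches overlap and start 130 and 124 bases before the start site, in CXCL10 the 1 match starts 221 bases before it, and in TNFSF10 the 1 match, on the other strand, starts 187 bases before it. IFI27 holds 1 match on each strand, 108 and 95 bases before the start site.

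Of 29 measured sensors and interferon signalling genes 13 rose and 0 fell, with a median of 0.34, or 14 and 1 without doxycycline replicate 2. Without doxycycline replicate 3, or any 1 of the recovery arrays, 8 rose. IFNB1, which encodes interferon beta, had 7.44, 7.88 and 7.56 in recovery and was not detected on any doxycycline or control array, where it read 4.92, 4.73 and 4.99 in doxycycline and a mean of 4.54 in control. It was at least 5.02-fold higher in recovery (2.75 ± 0.15, adjusted p = 2.13e-05). IFNB1 passed the detection filter through the recovery arrays alone, so its standard error and adjusted p rest on values below detection in doxycycline. Sensors of double-stranded RNA rose with it: the endosomal TLR3 by 2.37 ± 0.19, IFIH1 (MDA5) by 1.60 ± 0.13, RIGI by 1.51 ± 0.14 and their regulator DHX58 by 1.40 ± 0.15. IRF1, a transcription factor of the response, rose by 1.25 ± 0.12.

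All 5 measured guanylate-binding proteins, GTPases that attack intracellular pathogens, rose in both fits and without any 1 array, with a median of 1.66. GBP4 had 11.39, 11.93 and 11.51 in recovery and 9.36, 9.49 and 9.40 in doxycycline (2.20 ± 0.16). GBP1 had 13.31, 13.42 and 13.36 in recovery and 12.22, 12.39 and 12.35 in doxycycline (1.04 ± 0.12). The groups do not overlap in either gene.

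In the list of antigen presentation 13 of 21 genes rose and 0 fell, with a median of 0.82, and 14 rose without doxycycline replicate 2. The count was 5 without recovery replicate 2, and 7 without doxycycline replicate 3 or recovery replicate 1 or 3. PSMB9, a catalytic subunit of the immunoproteasome, had 11.13, 11.56 and 11.28 in recovery and 9.28, 8.83 and 8.78 in doxycycline (2.36 ± 0.18, and 1.74 at its other kept probe). The other catalytic subunits PSMB8 (1.16 ± 0.15) and PSMB10 (1.11 ± 0.15) rose less. NLRC5, the activator of MHC class I genes, rose by 1.60 ± 0.19 and was detected on 1 of 3 doxycycline arrays. HLA-E, a nonclassical class I chain, rose by 1.87 ± 0.15; class I chains are similar in sequence, so probes of 1 chain may read others. The median excess of doxycycline replicate 2 over its 2 fellow arrays was 0.47 for the list.

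Of 18 measured chemokines and cytokines 8 rose and 1 fell, or 9 and 1 without doxycycline replicate 2. CXCL10, which draws activated T cells, had 12.02, 12.49 and 12.28 in recovery and 9.14, 9.32 and 9.13 in doxycycline, and rose by 3.07 ± 0.15 (8.39-fold). TNFSF10, the death ligand TRAIL, had 10.18, 10.82 and 10.36 in recovery and 6.95, 7.28 and 7.19 in doxycycline (3.32 ± 0.18), and was not detected in control. For both genes the recovery arrays lay well above all doxycycline arrays. CXCL11, of the same receptor as CXCL10, rose by 2.69 ± 0.22, the T cell chemokine CCL5 by 1.70 ± 0.18, the pleiotropic cytokine IL6 by 1.50 ± 0.16 and IL15, a growth factor of natural killer cells, by 1.20 ± 0.14. Against these, the monocyte chemokine CCL2 fell (-1.06), named after its values were seen.

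Of 22 NF-kB subunits and feedback genes 9 rose and 0 fell, with a median of 0.47. Without doxycycline replicate 2, 13 rose and 1 fell, and the number that rose was 6 without doxycycline replicate 3 and 4 and 5 without recovery replicates 2 and 3. SOD2, the mitochondrial superoxide dismutase, had 12.82, 13.28 and 12.92 in recovery and 11.51, 10.93 and 11.36 in doxycycline (1.74 ± 0.19). The feedback inhibitors TNFAIP3 (1.15 ± 0.15), NFKBIE (1.10 ± 0.14) and TNIP1 (1.09 ± 0.16) rose by similar amounts. RELB, a subunit of the noncanonical pathway, rose by 0.75 ± 0.13 and was not called without recovery replicate 2 (adjusted p = 0.0609).

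Of 21 death receptors and caspases 9 rose and 0 fell. CASP1, the protease of the inflammasome, had 9.12, 9.55 and 9.18 in recovery and 5.84, 5.30 and 5.62 in doxycycline, without overlap, and rose by 3.70 ± 0.18 (13.0-fold). It was not detected on any control array. The DNA sensor AIM2 rose by 1.79 ± 0.18, with 0.96 at its other kept probe, the death receptor FAS by 1.19 ± 0.15, the necroptosis effector MLKL by 1.13 ± 0.13 and the BH3-only gene PMAIP1 by 1.04 ± 0.15. In the list of death receptors and caspases 9 rose and 1 fell without doxycycline replicate 2. The count that rose was 5 without doxycycline replicate 3 and without any 1 recovery array. Among 8 complement genes CFB, factor B of the alternative pathway, rose by 3.16 ± 0.26. Its levels were 8.87, 9.37 and 9.35 in recovery and 5.65, 6.67 and 5.81 in doxycycline. The classical pathway proteases C1S (0.95 ± 0.22) and C1R (0.89 ± 0.23) rose and the complement inhibitor CD59 fell (-0.91 ± 0.20) with all arrays. None of these 3 calls held without doxycycline replicate 3, with adjusted p up to 0.126, 0.174 and 0.102 over the fits that left 1 array out, and the 3 kept probes of C1R ran from -0.07 to 1.01. Without doxycycline replicate 1, 3 complement genes fell.

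**Figure D3:**
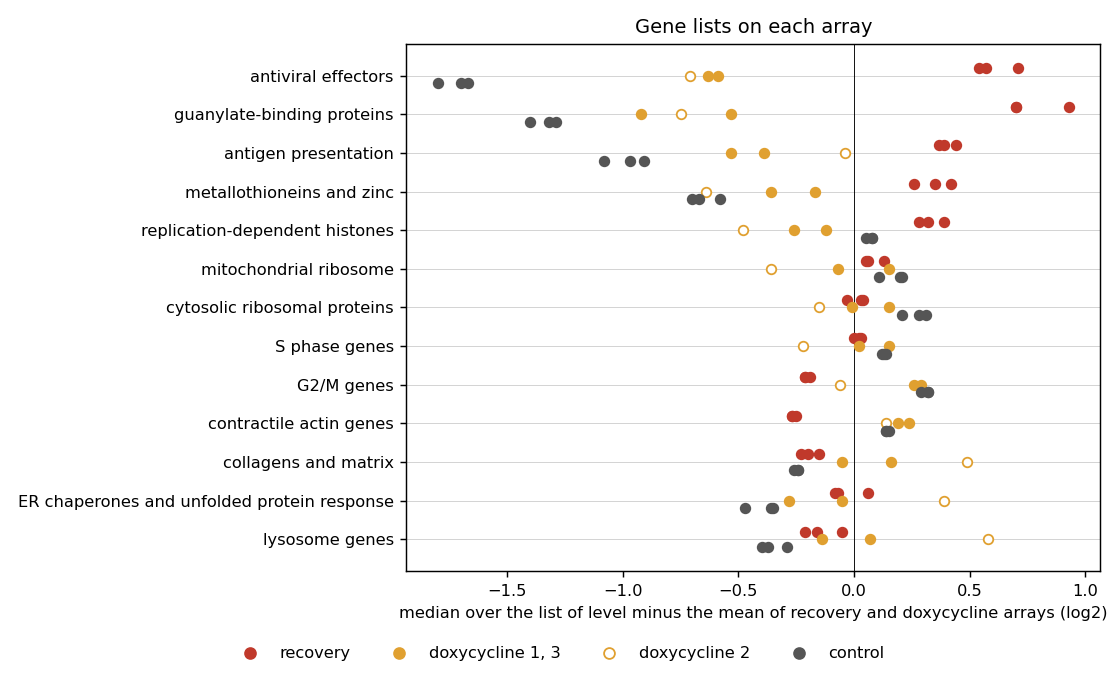
For 13 gene lists, the median over the list of each gene's log2 level minus its mean over the recovery and doxycycline arrays (horizontal axis), 1 point per array, recovery in red, doxycycline in yellow with replicate 2 open, control in grey. Antiviral effectors lie at 0.54 to 0.71 in recovery, -0.71 to -0.59 in doxycycline and -1.80 to -1.67 in control; G2/M genes lie at -0.21 to -0.19 in recovery, -0.06 to 0.29 in doxycycline and 0.29 to 0.32 in control.

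Genes of metal binding rose in part. Of 7 measured metallothioneins and zinc genes 4 rose and 0 fell, in both fits, and 2 rose without doxycycline replicate 3 or any 1 recovery array. MT2A, a zinc-binding metallothionein, had 12.53, 12.64 and 12.55 in recovery and 11.50, 10.85 and 10.97 in doxycycline, without overlap (1.46 ± 0.18). MT1G rose by 1.78 ± 0.26. Metallothionein genes are close copies of each other, and probes may be shared among them. The core of the metal response element, TGCNCNC, was found 8 times in the MT2A window on the 2 strands together; this window is shown because MT2A has the smallest p of its list. It is also found in 63.0% of windows of all genes tested and 55.2% of all promoters in the table. The shares were 54.8% for genes called higher and 67.3% for genes called lower. The window lies at chr16:56608334-56608633 (GRCh38.p14, plus strand, RefSeq), with matches on either strand in capitals.
MT2A: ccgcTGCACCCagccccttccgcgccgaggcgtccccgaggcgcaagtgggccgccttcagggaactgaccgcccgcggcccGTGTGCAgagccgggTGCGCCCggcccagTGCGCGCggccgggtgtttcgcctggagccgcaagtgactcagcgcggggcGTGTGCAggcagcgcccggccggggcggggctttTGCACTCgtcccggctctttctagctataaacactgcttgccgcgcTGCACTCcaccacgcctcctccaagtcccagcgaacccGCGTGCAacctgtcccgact

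Of 40 measured G2/M genes 13 fell and 0 rose, against 6.19% of all genes called lower, with a median of -0.44. Without doxycycline replicate 2, 29 fell, against 10.3% of all genes in that fit, and the median was -0.52. The count changed with single arrays: 14 fell without doxycycline replicate 1, 3 without doxycycline replicate 3, and 3, 1 and 4 without recovery replicates 1, 2 and 3. Lower calls over all 11938 genes moved too, with 1196 without doxycycline replicate 1 and 216 without doxycycline replicate 3. They were 217, 158 and 267 without recovery replicates 1, 2 and 3.

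MKI67, the proliferation antigen Ki-67, had 6.65, 6.56 and 6.61 in recovery and 7.45, 8.40 and 7.94 in doxycycline, and fell by 1.32 on the log2 scale (adjusted p = 0.00596). TOP2A, the topoisomerase that untangles chromosomes, had 12.04, 11.97 and 12.01 in recovery and 12.68, 12.62 and 12.75 in doxycycline (-0.68 ± 0.12, adjusted p = 0.00889). The groups do not overlap in either gene. TOP2A was not called without doxycycline replicate 3 or recovery replicate 2 (adjusted p = 0.0574 and 0.0635). The kinetochore gene CENPF (-0.85 ± 0.16) and the spindle gene ASPM (-1.03 ± 0.20) fell with all arrays and not without recovery replicate 2 (adjusted p = 0.0799 and 0.0837). CENPF was also lost without recovery replicate 1, and ASPM without doxycycline replicate 3 or recovery replicate 3.

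The cell cycle homology region, TTTGAA, was found on either strand in 24 of 34 G2/M genes with a promoter window (70.6%), in 10.5% of all genes tested and in 15.4% of all promoters in the table. Windows of CENPF and ASPM hold 1 match each, and those of the mitotic genes CENPE and KIF20A hold 0. The windows of TOP2A at chr17:40417847-40418146 and MKI67 at chr10:128126374-128126673, both on the minus strand (GRCh38.p14, RefSeq), hold 2 matches each, in capitals.
TOP2A: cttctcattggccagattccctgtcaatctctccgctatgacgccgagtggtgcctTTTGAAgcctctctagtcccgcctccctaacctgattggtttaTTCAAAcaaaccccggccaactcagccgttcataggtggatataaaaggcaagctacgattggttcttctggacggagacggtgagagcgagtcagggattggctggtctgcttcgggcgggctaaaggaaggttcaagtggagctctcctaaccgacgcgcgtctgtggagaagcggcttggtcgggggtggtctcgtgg
MKI67: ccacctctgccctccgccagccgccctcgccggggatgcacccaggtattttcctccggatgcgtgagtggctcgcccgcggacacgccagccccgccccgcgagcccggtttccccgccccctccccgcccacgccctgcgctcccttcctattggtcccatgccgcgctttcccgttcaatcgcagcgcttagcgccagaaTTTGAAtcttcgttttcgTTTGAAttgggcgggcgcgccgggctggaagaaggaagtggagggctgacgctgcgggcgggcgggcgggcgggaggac
In TOP2A the matches start 194 and 151 bases before the start site, the one at 151 on the other strand, and in MKI67 47 and 29 bases before it.

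Of 36 S phase genes 0 were called by limma with all arrays (2 higher and 1 lower at an unadjusted p under 0.05), with a median of -0.02. Without doxycycline replicate 2, 2 fell. Histone genes of the replication-dependent kind, whose messages normally lack poly(A) tails, went the other way from the mitotic genes, with 10 of 20 higher and 1 lower and a median of 0.63. The linker histone H1-4 had 7.72, 7.94 and 8.01 in recovery and 6.72, 5.63 and 6.36 in doxycycline (1.65 ± 0.25). H2AC18 rose by 1.58 ± 0.16 and H2AC6 by 1.46 ± 0.18. H2AC25 stood against them, at 9.63, 9.18 and 9.88 in recovery and 11.39, 11.11 and 11.13 in doxycycline, a fall of 1.65 on the log2 scale. Histone genes of 1 class are nearly identical in sequence, so the gene behind a probe is uncertain. On doxycycline replicate 2 the list lay a median of 0.34 below the other doxycycline arrays. Without that array 10 were higher and 2 lower. The number higher was 4, 4, 5 and 4 without doxycycline replicate 3 and recovery replicates 1, 2 and 3.

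Among 10 cyclins and cell cycle inhibitors 4 rose and 1 fell in both fits. CCND1, cyclin D1, had 8.26, 9.06 and 8.49 in recovery and 6.40, 6.38 and 6.36 in doxycycline (2.23 ± 0.20), with a mean of 5.06 in control. The inhibitors CDKN1A (p21) and CDKN2B (p15) rose by 1.13 ± 0.17 and 0.92 ± 0.14. The 2 other calls, cyclin CCND3 (0.46 ± 0.12) and the kinase CDK6 (-0.63 ± 0.13), did not hold without doxycycline replicate 3 or any 1 recovery array (adjusted p up to 0.161 and 0.0889), and CCND3 also not without doxycycline replicate 1 (adjusted p = 0.0522). CCND1, CDKN1A and CDKN2B stood higher on every recovery array than on any doxycycline array.

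**Figure D4:**
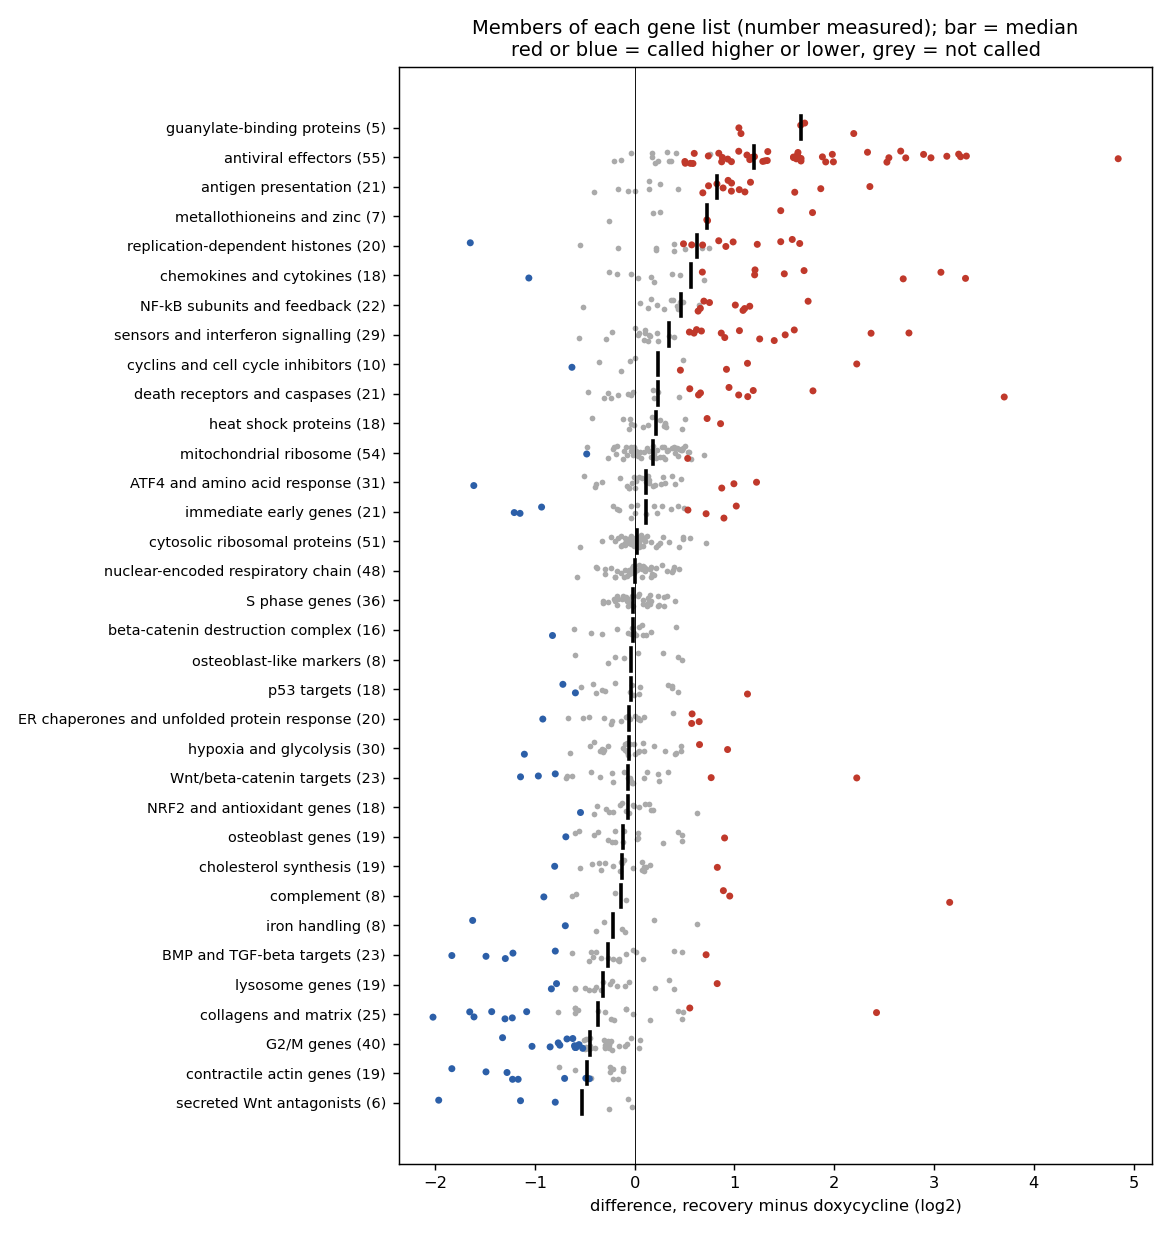
Each point is a measured member of a gene list, placed by its log2 difference, recovery minus doxycycline, with called genes in red (higher) or blue (lower), others in grey and the list's median as a black bar. Medians run from 1.66 for guanylate-binding proteins to -0.52 for secreted Wnt antagonists.

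Of 23 Wnt/beta-catenin targets 2 rose and 3 fell, with a median of -0.07. Of 16 Wnt receptor and destruction complex genes 0 rose and 1 fell. Over all genes tested 5.80% were called higher and 6.19% lower. Without doxycycline replicate 2, 3 targets rose and 4 fell, and 1 destruction complex list gene rose and 2 fell. Without doxycycline replicate 1, 6 targets fell. AXIN2, the feedback target most used as a readout of the pathway, did not pass (-0.43 ± 0.14, adjusted p = 0.072). Besides CCND1 the risen target was SP5 (0.77 ± 0.14), which was not called without recovery replicate 2 or 3 (adjusted p up to 0.0664). ENC1, an actin-binding target, had 10.04, 10.00 and 9.94 in recovery and 10.84, 11.14 and 10.89 in doxycycline (-0.96 ± 0.13). LRP5, the Wnt co-receptor, fell by 0.83 on the log2 scale and lost its call without doxycycline replicate 3 or any 1 recovery array (adjusted p from 0.0794 to 0.148).

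Of 6 measured secreted antagonists of the pathway 3 fell and 0 rose, with a median of -0.52. SOST, which encodes sclerostin, had 5.64, 5.28 and 5.49 in recovery and 7.38, 7.72 and 7.21 in doxycycline, with a mean of 7.71 in control. The recovery arrays lay near background and below all others, and SOST fell by 1.96 on the log2 scale (3.90-fold lower, adjusted p = 0.000205). DKK1, which blocks the LRP co-receptors, had 10.32, 9.92 and 10.36 in recovery and 11.12, 11.63 and 11.28 in doxycycline (-1.14 ± 0.18). NOTUM, an enzyme that inactivates Wnt ligands, differed by -0.79 ± 0.19 and was not called without doxycycline replicate 3 or any 1 recovery array (adjusted p from 0.0831 to 0.138).

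Of 19 osteoblast genes 1 rose and 1 fell, near the 5.80% and 6.19% of all genes tested. Without doxycycline replicate 2, 3 rose, against 9.49% of all genes. Without doxycycline replicate 1, 3 fell, against 1196 of all 11938 genes. The ligand BMP2 rose by 0.90 ± 0.13, and its relative BMP4 fell by 0.69 on the log2 scale. The call of BMP4 ended without recovery replicate 2 (adjusted p = 0.0785). RUNX2, the master factor of the osteoblast, read 11.52, 11.53 and 11.53 in recovery and 11.67, 11.81 and 11.72 in doxycycline (-0.20 ± 0.12, adjusted p = 0.31).

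Of 19 genes of the contractile actin cytoskeleton 8 fell and 0 rose, with a median of -0.48. Without doxycycline replicate 2 the count was 10, and it was 4 or 5 without doxycycline replicate 3 or any 1 recovery array. TAGLN, the actin-bundling transgelin, had 9.03, 8.86 and 9.16 in recovery and 11.08, 10.61 and 10.85 in doxycycline (-1.83 ± 0.16, and -1.29 at its other kept probe). ACTA2, smooth muscle actin, had 10.77, 10.65 and 10.69 in recovery and 12.27, 12.03 and 12.27 in doxycycline (-1.49 ± 0.13). The groups were apart by more than 1 on the log2 scale in both genes. The muscle marker CKM, given above, fell too. Cardiac actin ACTC1 fell by 1.28 on the log2 scale. CNN1, the actin-binding calponin, was not detected on any recovery array and was at least 1.56-fold lower there.

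For targets of BMP and TGF-beta, 5 of 23 were lower and 1 higher, TAGLN and ACTA2 among them, with a median of -0.26. Without doxycycline replicate 2, 7 fell and 2 rose. Without doxycycline replicate 3 or any 1 recovery array 3 fell and 0 rose. PMEPA1, a feedback inhibitor of TGF-beta signalling, fell by 1.30 on the log2 scale, with -0.58 at its other kept probe. THBS1, a matrix activator of TGF-beta, differed by -1.22 ± 0.24 and lost its call without doxycycline replicate 3 or any 1 recovery array (adjusted p from 0.056 to 0.0799).

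Collagens and matrix genes moved both ways, with 2 of 25 higher and 7 lower. The median was -0.37, and -0.16 without doxycycline replicate 2, whose median excess over the 2 other doxycycline arrays was 0.60. The number lower was 12 without doxycycline replicate 1, 4 without recovery replicate 1 and 2 without recovery replicate 2, and 4 were higher without doxycycline replicate 2. MMP13, a collagenase, had 8.28, 8.52 and 8.40 in recovery and 5.61, 6.35 and 5.96 in doxycycline, and rose by 2.42 ± 0.19, and was not detected in control. ADAMTS5, an aggrecanase, had 5.55, 5.10 and 5.28 in recovery and 6.93, 7.73 and 7.34 in doxycycline, and fell by 2.02 on the log2 scale, with detection on 1 of 3 recovery arrays.

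The 5 called genes that lay furthest in doxycycline above both other groups were COL6A2, IGF1R, SPTB, COL6A1 and COL18A1. COL6A2, a chain of collagen VI, had 7.64, 7.73 and 8.17 in recovery and 8.98, 10.02 and 9.38 in doxycycline, with a mean of 8.28 in control (-1.61 ± 0.26); another kept probe gave 0.23, so its probes disagree in sign. COL18A1, the source of endostatin, fell by 1.65 on the log2 scale and was not called without recovery replicate 2 (adjusted p = 0.0518). COL6A1 fell by 1.43 and was not called without recovery replicate 1 or 2 (adjusted p up to 0.0796). SPTB, beta-spectrin, had 6.31, 6.59 and 6.66 in recovery, 7.76, 8.33 and 7.72 in doxycycline and a mean of 6.90 in control (-1.41 ± 0.19). IGF1R, the receptor of insulin-like growth factor, fell by 1.24 and was not called without doxycycline replicate 3 or any 1 recovery array (adjusted p from 0.0813 to 0.153). In all 5 genes doxycycline replicate 2 was the highest array of the 6. Without it the differences were -1.33 for COL6A2, -0.80 for IGF1R, -1.22 for SPTB, -1.06 for COL6A1 and -1.30 for COL18A1, each still called.

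The largest fall of all was in CRISPLD2, a secreted protein of mesenchymal cells, with 7.13, 7.15 and 7.36 in recovery and 9.03, 10.07 and 9.38 in doxycycline. It fell by 2.28 on the log2 scale (4.86-fold lower), and by 1.99 without doxycycline replicate 2. DANCR, a long noncoding RNA known to restrain osteoblast differentiation, had 7.57, 7.08 and 6.55 in recovery and 9.16, 8.55 and 8.90 in doxycycline (-1.80 ± 0.26). In both genes the recovery arrays lay below every doxycycline array, which the choice of the largest falls required. FGFR3, a fibroblast growth factor receptor of cartilage and bone, fell by 1.74 on the log2 scale, with -0.38 at its other kept probe.

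REEP1, which shapes endoplasmic reticulum tubules, fell by 1.70, the cell surface proteoglycan GPC1 by 1.67, ACO1, the iron-regulated cytosolic aconitase, by 1.62 and the serpin SERPINB7 by 1.62 on the log2 scale. ACO1 had 9.86, 9.35 and 9.81 in recovery and 11.41, 11.04 and 11.44 in doxycycline, without overlap.

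Immediate early genes, which respond first to growth and stress signals, split, with 4 of 21 higher and 3 lower, or 1 higher and 2 lower without recovery replicate 2 and 2 each way without doxycycline replicate 3 or recovery replicate 1 or 3. FOS, a partner of JUN in AP-1, had 9.63, 9.23 and 9.41 in recovery and 10.36, 10.99 and 10.53 in doxycycline (-1.21 ± 0.19), and the endothelial and lymphocyte factor KLF2 fell by 0.93 on the log2 scale. The nuclear receptor NR4A2 rose by 1.02 ± 0.17. KLF4 rose by 0.90 ± 0.16 and was not called without recovery replicate 2 (adjusted p = 0.0526).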

How the data were processed

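RNA of 9 SaOS2 samples was hybridised to single-colour Illumina bead arrays, with 1 dye per the labels. In the deposited signal table the authors gave 1 averaged intensity per array for 47322 probes, not normalized between arrays. Values below 0, on 29.2% to 32.5% of probes, show that background was subtracted. Beside it the authors deposited a detection p-value per probe, stepped in units of 1 in 770. The other deposited table has linear intensity values, with a median of 14.39 to 14.44 per array. Which software made these values was not given in the sources used here. Short column codes of the first table were tied to samples by rank identity with the second (rank correlation 1.0, and at most 0.962 for any other column), and 0 columns were left out.

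Signals were background corrected in limma 3.58.1 (R 4.3.3) by the normexp model on detection p-values, with an offset of 16, log2 transformed and quantile normalized over 9 arrays. Probes detected (p under 0.05) on at least 3 of the 6 recovery and doxycycline arrays were kept, 21099 in number. Each of 11938 genes was represented by its brightest kept probe. Of the probes 30112 had 1 symbol, 8 several and 17202 none, and the 5187 kept probes without 1 symbol were tested apart. Groups were compared with lmFit and eBayes on the 6 arrays, with 4 residual degrees of freedom, or 3 without doxycycline replicate 2, and a prior of 5.07.

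Gene lists were described by counts and medians, without list tests. The comparison, the lists and the alternatives were chosen with earlier results of these data known. Named genes are APC, the 12 largest rises and falls called in both fits without overlap, up to 6 members of each list with the smallest p, the calls lost without doxycycline replicate 2 and the 5 called genes highest in doxycycline. A fold against a group in which a gene was not detected on any array is a bound, set against the lowest detected signal. Such a gene passed the detection filter only through the other group. This holds for 45 genes called higher, not detected in doxycycline, and 17 called lower, not detected in recovery. Promoters are RefSeq windows on GRCh38.p14, matched for 9663 of 11938 genes. Tables and figures were made with Python 3.11.15.

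Precision is limited by the number of arrays. In 10 simulations with 200 of 11938 genes changed, 8.7% of differences of 0.5, 63.9% of 1 and 93.2% of 2 were recovered. In these, 4.9% of calls were unchanged genes. Noise was drawn as normal, independent between genes, and with the same spread in both groups. The data differ from this, with 1432 genes called and median spreads of 0.117 in recovery and 0.218 in doxycycline. The simulated shares therefore need not hold for the real comparison. Alternatives were another offset, no background correction, other scalings, other detection filters, the authors' processed values, a trended robust prior, the mean over probes, all 9 arrays in the fit, array weights, a replicate block, a minimum difference of 1 and each array left out.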

Additional observations from a re-analysis of the deposited data

How the results depend on the processing

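Of 136 called genes among the 214 named, 74 kept their call under every alternative in which they were tested, 68 of them under 22 and 6 under 21, and 0 of the 214 reversed with a call. Leaving out 1 array gave from 395 to 2364 calls, 237 to 1133 of them higher and 158 to 1231 lower. With array weights, whose estimate stopped before its tolerance was reached, 6727 genes were called, 3176 higher and 3551 lower. With all 9 arrays in the fit there were 2278 calls, 1082 higher and 1196 lower, and 2697, 1266 higher and 1431 lower, when doxycycline replicate 2 was also left out, an alternative chosen after seeing the data. A minimum difference of 1 left 364, 209 higher and 155 lower. For these counts the cause was not tested beyond the change in arrays or threshold itself. Same-numbered arrays did not deviate together (correlations of -0.049, -0.065 and -0.053, and 0 of 6 arrays closest to their own number). With so few arrays per group, these values cannot decide whether same-numbered arrays were handled together. The replicate block gave 988 calls, 489 higher and 499 lower. The remaining alternatives gave 472 to 754 higher and 682 to 868 lower, with median scaling at 472 and 868. Signals near background, as for APC, SOST and CNN1 in recovery, limit what can be measured.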

Other observations

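Among small noncoding RNAs, grouped by name after their values were seen, 7 of 10 spliceosomal RNAs rose and 0 fell, with a median difference of 1.80, or 1.28 without doxycycline replicate 2. The number that rose was 3 without recovery replicate 2, 4 without doxycycline replicate 3 or recovery replicate 1 and 5 without recovery replicate 3. RNU6ATAC (0.66), RNU1-1 (0.30) and RNU6-1 (-0.05) were not called by limma (adjusted p = 0.069, 0.64 and 0.91). Median levels were 8.71 in recovery, 6.60 in doxycycline and 7.35 in control. RNU11, the U11 RNA of the minor spliceosome, had 8.85, 9.21 and 9.08 in recovery and 7.04, 6.62 and 6.99 in doxycycline (2.16 ± 0.16). RNVU1-18, a U1 variant, rose by 2.67 ± 0.40, and its doxycycline arrays ranged from 6.42 to 8.16. Its control arrays were also far apart, at 6.78, 8.68 and 8.49. SNORD3D, the U3 RNA of ribosome processing, had 8.78, 8.96 and 9.09 in recovery and 6.40, 5.36 and 6.01 in doxycycline (3.02 ± 0.24), and its copies SNORD3C and SNORD3A rose by 2.15 ± 0.17 and 1.79 ± 0.20. U1, U3 and U4 genes are near-identical copies, so the gene behind a probe is uncertain. Of 126 snoRNAs and scaRNAs 10 rose and 0 fell, against 5.80% and 6.19% of all genes. Without doxycycline replicate 2, 24 rose and 0 fell, against 9.49% and 10.3% of all genes. The median excess of that array over the 2 other doxycycline arrays was 0.56 for these RNAs. Without doxycycline replicate 1, 11 rose and 7 fell, against 1087 and 1196 of all 11938 genes.

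Of 31 genes of the ATF4 and amino acid response 3 rose, among them WARS1, tryptophanyl-tRNA synthetase (1.22 ± 0.17), and DDIT3, the stress factor CHOP (1.00 ± 0.13), and the lipoprotein receptor VLDLR fell by 1.61 on the log2 scale; without doxycycline replicate 1, 3 genes of this list fell. Of 20 genes of endoplasmic reticulum chaperones and the unfolded protein response 3 rose and 1 fell with all arrays, and 0 were called without doxycycline replicate 3 or any 1 recovery array (limma). Their median was -0.05, and 0.13 without doxycycline replicate 2, where they lay 0.56 above the other doxycycline arrays. Over all genes tested 5.80% were called higher and 6.19% lower, or 9.49% and 10.3% without doxycycline replicate 2. Without doxycycline replicate 1 these calls were 1087 and 1196 of 11938 genes. Of 30 hypoxia genes 2 rose and 1 fell, or 3 and 4 without doxycycline replicate 2 and 4 and 4 without doxycycline replicate 1. Of 18 heat shock genes 2 rose, and of 18 NRF2 genes 1 fell (4 without doxycycline replicate 2). Of 18 p53 targets 1 rose and 2 fell, or 2 and 6 without doxycycline replicate 2 and 3 and 2 without doxycycline replicate 1. Of 19 lysosome genes 1 rose and 2 fell, or 2 and 7 without doxycycline replicate 1, of 19 cholesterol genes 1 rose and 1 fell, and of 8 iron genes 2 fell. Apart from the ATF4 list, each of these lists held at most 2 calls without doxycycline replicate 3 or any 1 recovery array.

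Of 54 mitochondrial ribosome genes 1 rose and 1 fell, against 5.80% and 6.19% of all genes. The counts were 3 and 3 without doxycycline replicate 2 and 10 and 0 without doxycycline replicate 1. Of the mitochondrial ribosome genes 0 were called by limma without doxycycline replicate 3 or any 1 recovery array. With limma 0 of 51 cytosolic ribosomal protein genes were called (3 higher and 2 lower at an unadjusted p under 0.05) and 0 of 48 respiratory chain genes (2 higher and 3 lower). Without doxycycline replicate 1, 5 cytosolic ribosomal protein genes rose, and 4 respiratory chain genes rose and 1 fell. Their medians of 0.02 and 0.01 became -0.04 and -0.08 with median scaling, which moved the median of all genes from -0.0094 to -0.0775. Among 5187 kept probes without 1 gene name 62 rose and 35 fell, or 91 and 83 without doxycycline replicate 2.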
